A study of Mus musculus with 18 samples.

Results

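Mouse genes named Zfp followed by a number encode zinc finger proteins, most of them of the Cys2His2 type, in which small zinc-binding loops read DNA bases or, in a few proteins, bind RNA. Many of the family carry a KRAB domain at the protein's start, which recruits the corepressor Trim28 and with it the histone methyltransferase Setdb1, and such proteins are known for silencing transposable elements and imprinted loci. Others are activators, lineage factors, RNA-decay factors or ribosome-associated proteins, and KRAB genes often lie beside one another in the genome.

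The genes described here are the Zfp symbols that were detected in liver on all 9 mRNA arrays of the series. A gene was taken when the RefSeq accession of at least 1 of its probes mapped to a symbol made of Zfp and a number only, and when that probe was marked as well above background on all 9 arrays. Zfp365 was left out by name. This gave 279 of 338 such symbols on the array, with 382 of 510 probes, out of 24819 genes tested. The members were thus chosen by their detection on all arrays, and their presence in every group is not a result.

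The mice were male C57BL/6 mice of 6 weeks that had gone without food for 12 h. Monocrotaline, a plant alkaloid that the liver turns into a reactive pyrrole and that injures the cells lining the sinusoids, was given once by mouth. The 3 groups were saline (control), 270 mg/kg (MCT 270) and 330 mg/kg (MCT 330), each of 8 mice, and livers were taken at 48 h. Each group has 3 single-colour mRNA arrays, labelled as separate mice. Levels are given as relative signal, the processed spot intensity divided by the 75th percentile of its array. A level of 1 therefore lies at that percentile, and levels of different probes are not comparable.

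The 9 arrays did not behave as 9 independent livers. Replicates 2 and 3 of each group carry the same array position label in different scan sessions, and the deviations of repeated spots from their probe's mean correlated at 0.723 to 0.930 between them, against 0.264 to 0.544 between other arrays of a group. They were averaged as 1 array. MCT 330 replicate 1 differed from replicates 2 and 3 by 1.04 and 1.07 times the noise between repeated spots (highest over 4 brightness classes), whereas replicate 1 of the other groups differed by 3.50 to 4.35 times. It was averaged with them as well. The fit therefore compared 5 samples, of which 2 were control, 2 were MCT 270 and 1 was MCT 330. The limit written down for this step was 1, and it was raised to 1.2 after the ratios were seen. At a limit of 1 the data hold 6 samples, and counts from that fit are given beside the main ones. Since only control and MCT 270 have more than 1 sample, p-values rest on their spread, which may be partly technical, and the spread of MCT 330 is taken to be equal to it. All MCT 330 arrays were scanned in sessions of their own, so dose and scan session cannot be told apart for them.

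The tissue had its labelled character: all 10 hepatocyte markers examined were tested in every comparison, with a summed relative signal of 2541 and 2800 in control, 2614 and 2071 in MCT 270 and 1871 in MCT 330. The summed signal of markers of other cell types differed between the groups, for neutrophils and monocytes at MCT 330 alone. The summed signal of 10 sinusoidal endothelial markers was 35.1 and 32.7 in control, 14.9 and 12.9 in MCT 270 and 9.72 in MCT 330, and that of 8 neutrophil and monocyte markers was 8.73 and 11.6 in control, 8.32 and 9.25 in MCT 270 and 41.7 in MCT 330. At MCT 330 against control, 4 of the 10 hepatocyte, 8 of 10 endothelial, 4 of 10 Kupffer cell and 6 of 10 stellate cell markers fell, 1 stellate marker rose, and 7 of 8 neutrophil and monocyte markers rose. T, B and NK cell markers gave 2 higher and 2 lower of 10, with a median log2 fold change of -0.0082. Their summed signal was 21.6 and 26.3 in control, 12.6 and 10.3 in MCT 270 and 7.64 in MCT 330. In whole liver, fewer cells of a type and less RNA per cell cannot be told apart, and the part of these shifts in the Zfp results was not tested.

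At 330 mg/kg, 24 Zfp genes rose and 25 fell against control, at an adjusted p under 0.05 (limma, Benjamini-Hochberg over all 24819 genes). That is 8.60% of the 279 members higher and 8.96% lower. Over all genes tested, 9.51% were higher and 23.8% were lower, and over the 13982 protein-coding symbols detected on all 9 arrays these shares were 10.2% and 22.0%. In this fit the share of members higher was near the background, while the share lower was under it. The balance of the 2 directions depended on the scaling. Quantile normalization gave 34 higher and 15 lower (12.2% and 5.38% of members, 12.4% and 17.2% of all genes tested). Normexp with quantile normalization gave 48 and 21 (17.2% and 7.53% of members, 14.8% and 15.8% of all genes tested). With no filter on dim probes 6 were higher and 4 lower (2.77% and 8.44% of all genes). With 6 samples the counts were 65 higher and 69 lower, 23.3% and 24.7% of the members, against 18.5% and 37.2% of all genes tested. With these 6 samples the share of members higher was thus above that of all genes, and the share lower under it. Without MCT 270 replicate 1, which leaves a single MCT 270 sample, the 24 and 25 became 4 and 3. These are 1.43% and 1.08% of the members, against 4.08% and 10.4% of all genes tested.

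**Figure D1:**
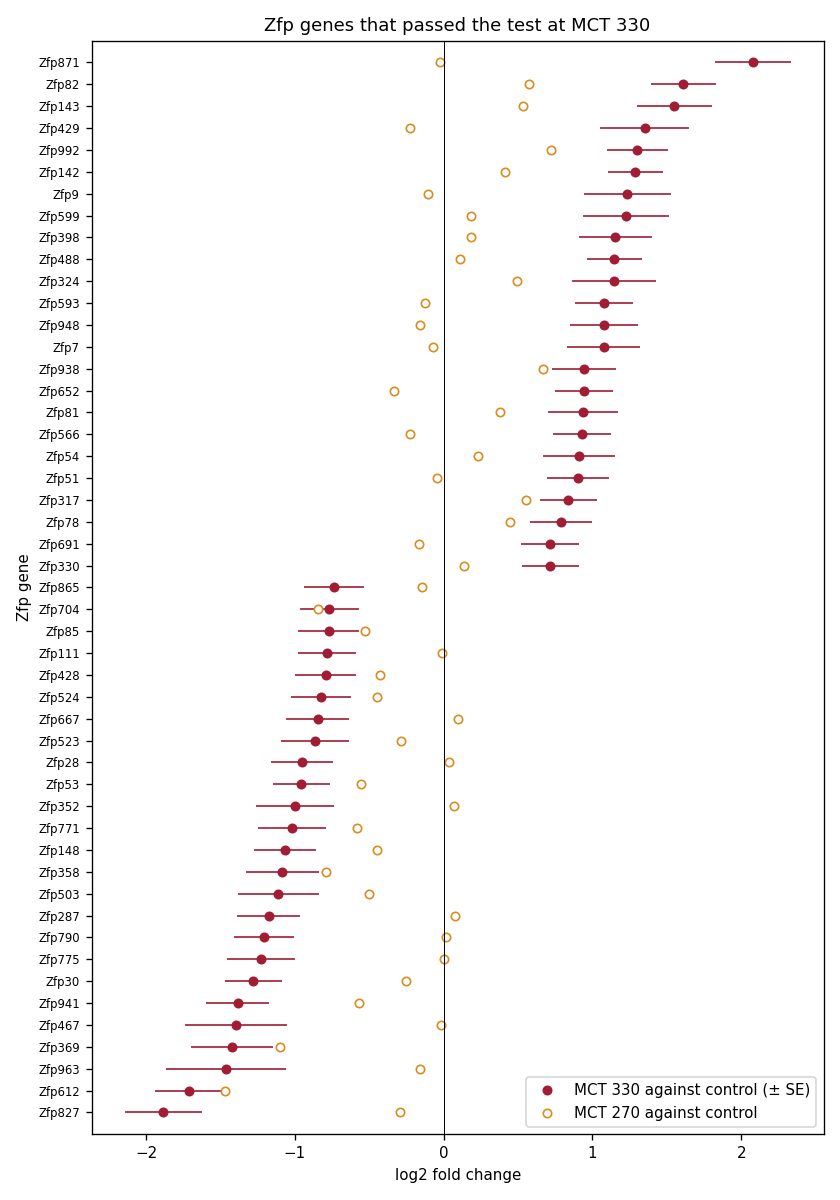
Log2 fold changes (horizontal axis) of the 24 Zfp genes that rose and the 25 that fell at MCT 330, 1 row per gene. Filled points are MCT 330 against control with the standard error of the fit, and open points are MCT 270 against control; Zfp871 is at the top with 2.08 and Zfp827 at the bottom with -1.88.

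Of these 49 genes, 6, singled out after their values were seen, passed under the main settings and under all 19 alternatives tried: Zfp871, Zfp82, Zfp143 and Zfp142, which rose, and Zfp827 and Zfp612, which fell. The size of their changes varied. Across the alternatives the log2 fold change ran from 1.21 to 2.33 for Zfp871, 0.97 to 1.88 for Zfp82 and 1.33 to 1.93 for Zfp143. It ran from 0.79 to 1.60 for Zfp142, -1.92 to -0.55 for Zfp827 and -1.82 to -0.95 for Zfp612. The limma adjusted p reached 0.0496 for Zfp142 and 0.0481 for Zfp143. Zfp871, which has no settled function in the liver, had relative signals of 0.0636 and 0.0499 in control, 0.0506 and 0.0606 in MCT 270 and 0.238 in MCT 330. The MCT 330 level lay 4.22-fold above control (log2 fold change 2.08 ± 0.25 SE, limma adjusted p = 0.0101) and 4.29-fold above MCT 270 (limma adjusted p = 0.0204), while control and MCT 270 arrays overlapped. This was the highest fold change of any member at MCT 330.

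Zfp82 had relative signals of 0.0790 and 0.0750 in control, 0.104 and 0.127 in MCT 270 and 0.235 in MCT 330. Its groups did not overlap and stood in the order of dose, with a 3.06-fold rise at MCT 330 against control (limma adjusted p = 0.0117). The 2.05-fold difference between the doses passed as well (limma adjusted p = 0.0370).

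Zfp143, the mouse counterpart of human ZNF143, activates promoters of small nuclear RNA genes and of many protein-coding genes. It had relative signals of 0.297 and 0.385 in control, 0.451 and 0.529 in MCT 270 and 0.991 in MCT 330. The groups again stood in the order of dose without overlap, and the MCT 330 level was 2.93-fold that of control (limma adjusted p = 0.0157). The 2.03-fold difference between the doses did not pass (limma adjusted p = 0.0509).

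Zfp142 had relative signals of 0.0629 and 0.0650 in control, 0.0834 and 0.0869 in MCT 270 and 0.156 in MCT 330, a 2.44-fold rise at MCT 330 against control (limma adjusted p = 0.0128). Its 3 groups stood in the order of dose, and MCT 330 was also higher than MCT 270 (1.83-fold, limma adjusted p = 0.0369).

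Zfp827, whose human counterpart recruits the NuRD remodelling complex to telomeres, had relative signals of 0.139 and 0.103 in control, 0.104 and 0.0923 in MCT 270 and 0.0324 in MCT 330. It was 3.69-fold lower at MCT 330 than in control (limma adjusted p = 0.0118) and 3.02-fold lower than at MCT 270 (limma adjusted p = 0.0241). Control and MCT 270 arrays overlapped, and every MCT 330 array lay under both.

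Zfp612 showed the other shape, with its drop already present at the lower dose. Its relative signals were 0.490 and 0.566 in control, 0.209 and 0.173 in MCT 270 and 0.161 in MCT 330. At MCT 330 it was 3.28-fold lower than in control (limma adjusted p = 0.0114), and at MCT 270 the log2 fold change was -1.47 (limma adjusted p = 0.0923, not past the threshold). The doses differed by a log2 fold change of -0.25 (limma adjusted p = 0.487).

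**Figure D2:**
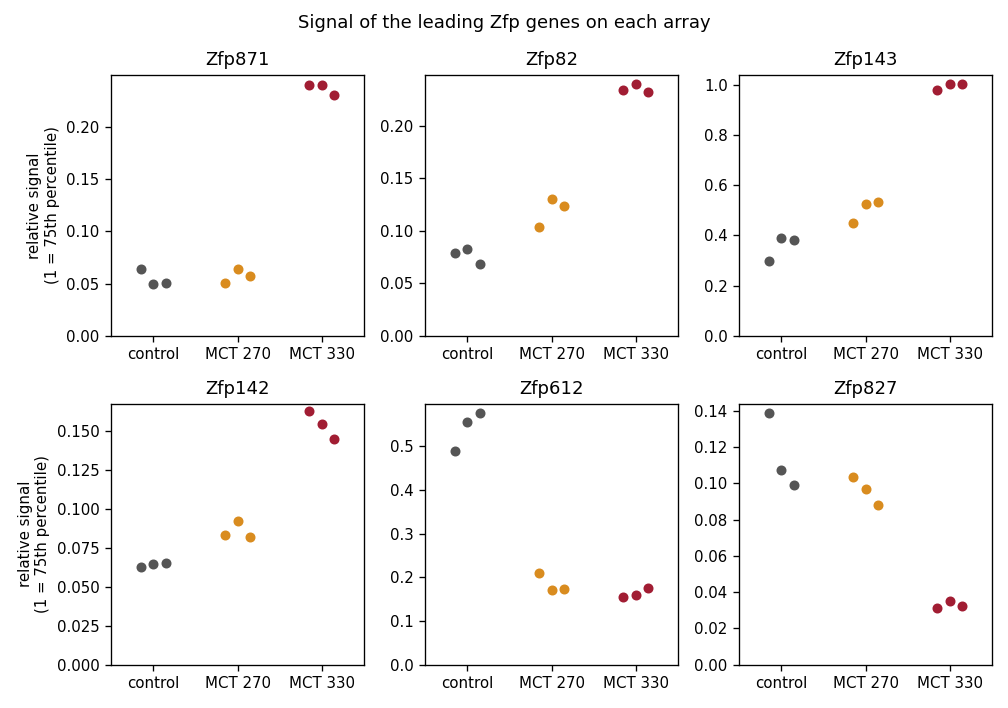
Relative signal (vertical axis, linear from 0; 1 is the 75th percentile of an array) of the 6 Zfp genes that passed under the main settings and all alternatives, 1 point per array in the order of replicates 1 to 3 within each group. MCT 330 arrays lie above all others for Zfp871, Zfp82, Zfp143 and Zfp142, and under all control arrays for Zfp612 and Zfp827.

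Promoter sequences of the members came from the RefSeq table of build GRCm38.p6, in which 236 of the 279 members had an entry. The window of 300 bases most often ran from 250 bases before a gene's start to 50 from it on. This held for 49.8% of the windows of protein-coding symbols, and the others lay elsewhere relative to that start. The windows are shown of those among the 6 genes above that have an entry, because these genes passed under every setting tried, in lower case with CG dinucleotides in capitals, the first listed window where a gene has several. In the counts a gene held a motif when any of its windows did. Zfp612 is named only.
Zfp871 (GRCm38.p6, chr17:32788238-32788537, minus strand): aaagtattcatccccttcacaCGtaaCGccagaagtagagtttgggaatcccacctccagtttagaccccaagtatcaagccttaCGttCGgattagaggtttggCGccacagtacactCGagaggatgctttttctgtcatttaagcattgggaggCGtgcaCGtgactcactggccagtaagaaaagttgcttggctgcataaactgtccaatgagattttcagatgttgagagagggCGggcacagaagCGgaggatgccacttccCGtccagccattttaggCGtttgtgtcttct
Zfp82 (GRCm38.p6, chr7:30072774-30073073, minus strand): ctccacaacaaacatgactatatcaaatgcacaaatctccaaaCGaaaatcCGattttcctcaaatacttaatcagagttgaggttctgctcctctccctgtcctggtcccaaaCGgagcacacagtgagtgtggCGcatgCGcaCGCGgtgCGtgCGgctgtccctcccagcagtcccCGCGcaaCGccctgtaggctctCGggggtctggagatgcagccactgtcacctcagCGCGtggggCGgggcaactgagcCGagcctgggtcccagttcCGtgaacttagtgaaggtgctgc
Zfp143 (GRCm38.p6, chr7:110061452-110061751, plus strand): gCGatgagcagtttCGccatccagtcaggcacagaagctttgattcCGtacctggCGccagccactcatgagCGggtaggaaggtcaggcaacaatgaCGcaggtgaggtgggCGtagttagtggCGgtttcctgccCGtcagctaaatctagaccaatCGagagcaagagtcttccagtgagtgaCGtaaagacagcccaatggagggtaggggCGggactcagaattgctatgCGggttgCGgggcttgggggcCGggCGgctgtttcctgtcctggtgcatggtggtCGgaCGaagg
Zfp142 (GRCm38.p6, chr1:74587979-74588278, minus strand): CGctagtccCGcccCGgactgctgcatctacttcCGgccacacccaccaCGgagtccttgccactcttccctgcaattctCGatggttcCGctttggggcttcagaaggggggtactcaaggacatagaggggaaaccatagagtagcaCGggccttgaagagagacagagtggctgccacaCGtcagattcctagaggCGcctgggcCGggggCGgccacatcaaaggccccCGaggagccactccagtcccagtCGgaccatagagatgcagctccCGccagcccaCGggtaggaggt
Zfp827 (GRCm38.p6, chr8:79028187-79028486, plus strand): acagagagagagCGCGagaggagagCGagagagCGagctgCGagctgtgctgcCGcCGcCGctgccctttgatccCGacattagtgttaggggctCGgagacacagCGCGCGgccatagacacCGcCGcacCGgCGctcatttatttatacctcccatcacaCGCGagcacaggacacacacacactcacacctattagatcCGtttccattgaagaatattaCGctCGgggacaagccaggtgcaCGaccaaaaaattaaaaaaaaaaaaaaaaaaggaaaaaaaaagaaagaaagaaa

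These windows hold between 12 and 23 CG dinucleotides, with 12 for Zfp871 and 23 for Zfp827. The median was 14.5 over the members with an entry, 15.0 over protein-coding symbols, 14.0 over the 18 members that rose and have an entry and 18.5 over the 20 that fell. Short motifs were searched in all windows on both strands, 10 in all, chosen with the results of the members known. Motifs of 10 or more letters were shortened to 9 after the first counts were seen. The ETS letters CCGGAAG were present for 21.2% of members, 12.9% of protein-coding symbols and 9.93% of all 27025 symbols in the table. They were in the windows of 4 of 18 members that rose and 2 of 20 that fell. The NRF1 letters GCGCATGCG were present for 5.08% of members and 2.61% of protein-coding symbols. The letters TGACGTCA of the cyclic AMP response element were present for 4.66% of members and 2.54% of protein-coding symbols, and AAGATGGCG, of YY1, for 4.24% and 2.14%. TATAAA was present for 8.47% of members and 14.8% of protein-coding symbols, TGACTCA (AP-1) for 3.81% and 5.40%, and the E-box CACGTG for 8.05% and 8.91%. TTATGTAA (D-box) and CCATATTAG (serum response element) were in the window of 0 of the 236 members. A match describes letters, and no motif was tested for binding.

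The letters ACTACAATT, from the site that ZNF143 is known to bind, were present for 10 of 236 members (4.24%), against 0.577% of protein-coding symbols and 0.448% of all symbols. These windows were chosen after the motif counts were seen, and are shown because Zfp143 itself rose at MCT 330, with the motif in capitals, up to 10 bases on each side and the strand on which the motif reads.
Zfp1 (GRCm38.p6, chr8:111643410-111643438, minus strand): gaggtgtaggACTACAATTcccataatgc
Zfp108 (GRCm38.p6, chr7:24254719-24254747, minus strand): tggctccagaACTACAATTcccagaatgc
Zfp111 (GRCm38.p6, chr7:24208377-24208399, minus strand): acttACTACAATTgtctttcatg
Zfp128 (GRCm38.p6, chr7:12881155-12881183, minus strand): ggacactgagACTACAATTcccagaaggc
Zfp180 (GRCm38.p6, chr7:24081867-24081895, minus strand): gctcaatggaACTACAATTcccagaactc
Zfp454 (GRCm38.p6, chr11:50887656-50887684, plus strand): tgtggccgaaACTACAATTcccagaaggc
Zfp58 (GRCm38.p6, chr13:67500532-67500560, plus strand): cagtggccagACTACAATTcccacaagtc
Zfp692 (GRCm38.p6, chr11:58307011-58307039, plus strand): actaaggctaACTACAATTcccggcaggc
Zfp93 (GRCm38.p6, chr7:24270339-24270367, minus strand): tggcgttggaACTACAATTcccagaattc
Zfp933 (GRCm38.p6, chr4:147848432-147848460, minus strand): tttccaaagaACTACAATTcccagcattc

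In all but Zfp111 the letters continue with 3 C bases. A first search used 11 letters, the same 9 followed by 2 C, and the letters were shortened after its counts were seen, which added Zfp111. With 11 letters 9 genes held the motif, of which 0 passed the test. Of the 10 genes, 1 passed the test at MCT 330 against control, Zfp111, which fell by 0.78 on the log2 scale (limma adjusted p = 0.0383). The log2 fold changes of the others ran from -0.54 (Zfp454) to 0.37 (Zfp1), with limma adjusted p from 0.194 (Zfp108) to 0.918 (Zfp128). In all, 5 of the 10 lay above 0 and 5 below. Over all members 17.6% passed in either direction, and over all genes tested 33.4%.

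Further members that rose at MCT 330 differed in what they did at the lower dose. Zfp429 had relative signals of 0.161 and 0.242 in control, 0.163 and 0.174 in MCT 270 and 0.504 in MCT 330, a 2.55-fold rise (limma adjusted p = 0.0303) with overlapping control and MCT 270 arrays. Zfp9 was 2.35-fold higher than control (limma adjusted p = 0.0347) and 2.53-fold higher than MCT 270 (limma adjusted p = 0.0384). Zfp992, by contrast, had 0.138 and 0.119 in control, 0.219 and 0.205 in MCT 270 and 0.316 in MCT 330, so its groups followed the dose without overlap (2.46-fold at MCT 330, limma adjusted p = 0.0147). Zfp599 and Zfp398 rose 2.34-fold and 2.22-fold at MCT 330. Zfp488, a factor of oligodendrocyte development, had 1.37 and 1.44 in control, 1.52 and 1.52 in MCT 270 and 3.11 in MCT 330 (2.21-fold, limma adjusted p = 0.0154). Across the 19 alternatives its log2 fold change ran from 0.21 to 1.16, and in 2 of them it did not pass (highest limma adjusted p 0.42). The other 14 that rose did so by 1.64-fold (Zfp330) to 2.21-fold (Zfp324).

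Among the members that fell, Zfp30, which encodes a KRAB protein, had relative signals of 0.425 and 0.468 in control, 0.365 and 0.383 in MCT 270 and 0.184 in MCT 330. Its groups followed the dose without overlap, and it was 2.43-fold lower at MCT 330 than in control (limma adjusted p = 0.0137). Zfp369 resembled Zfp612, with 0.104 and 0.145 in control, 0.0612 and 0.0540 in MCT 270 and 0.0459 in MCT 330 (2.68-fold lower at MCT 330, limma adjusted p = 0.0221). Zfp790, Zfp775 and Zfp287 had control and MCT 270 arrays that overlapped, and were 2.31-fold, 2.35-fold and 2.26-fold lower at MCT 330 than in control. Zfp287 had relative signals of 0.0645 and 0.0571 in control, 0.0597 and 0.0685 in MCT 270 and 0.0268 in MCT 330, and is among the dimmest members. Across the 19 alternatives the log2 fold change ran from -1.33 to -0.28 for Zfp287 and -1.25 to -0.31 for Zfp775. It ran from -1.23 to -0.51 for Zfp790 and -1.66 to -0.53 for Zfp369. Zfp287, Zfp775 and Zfp790 each did not pass in 3 alternatives, Zfp369 in 4 and Zfp30 in 1.

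Other calls among the members that fell carry a limit of their own. Zfp941 was 2.61-fold lower at MCT 330 on its brightest probe (limma adjusted p = 0.0139), while its other probe gave a log2 fold change of 0.48. Zfp85 fell by 0.77 on the log2 scale, but was at 0.10 when its probes were averaged (limma adjusted p = 0.687), so its direction depends on the probe. Zfp963 was 2.76-fold lower (limma adjusted p = 0.0497), with 5.45 and 3.24 in control and 4.47 and 3.18 in MCT 270 against 1.52 in MCT 330, and passed in 7 of 19 alternatives. Zfp467, a factor of adipocyte and osteoblast commitment, had 3.00 and 2.23 in control, 3.13 and 2.08 in MCT 270 and 0.982 in MCT 330 (2.63-fold lower, limma adjusted p = 0.0380). Zfp790 has a second probe, at a log2 fold change of -0.05 where the brightest gave -1.21. Over all members, 84 had more than 1 probe detected on all arrays, and at MCT 330 against control the probes of 33 of these disagreed in sign.

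The lowest fold change of any member missed the threshold. Zfp112 had relative signals of 1.25 and 0.358 in control, 0.330 and 0.325 in MCT 270 and 0.104 in MCT 330, a log2 fold change of -2.69 ± 0.74 (SE) at MCT 330 against control (limma adjusted p = 0.0502). The control samples differed more from each other than the second did from MCT 270. Zfp618 was likewise at -1.79 ± 0.63 (limma adjusted p = 0.0881), with 0.0486 in MCT 330 against 0.112 and 0.252 in control.

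At 270 mg/kg, 0 of the 279 members passed against control (limma; lowest adjusted p 0.0923), as did 0 of all 24819 genes (0%). At an unadjusted p under 0.05, 27 members were higher and 20 lower, 9.68% and 7.17%, near the 9.81% and 8.78% of all genes tested. With 6 samples, 8 members were higher and 5 lower, 2.87% and 1.79%, against 3.58% and 3.48% of all genes tested. All MCT 270 arrays lay above all control arrays for 83 members and below them for 69. These are 29.7% and 24.7% of the members, against 23.1% and 25.2% of all genes tested and 24.5% and 29.6% of protein-coding symbols detected on all arrays. MCT 270 and control share scan sessions: within the first session the members' median log2 fold change was 0.02 and within the second 0.0011, against 0.02 with both.

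The largest such separations at MCT 270 are given as values. Zfp967 had relative signals of 1.16 and 1.04 in MCT 270, against 0.330 and 0.623 in control. Zfp157 had 0.219 and 0.147 in MCT 270 against 0.103 and 0.0747 in control, but 0.0838 in MCT 330, which lay between the control samples. Zfp931 had 0.651 and 0.651 in MCT 270 against 0.370 and 0.326 in control, and Zfp820 had 0.223 and 0.230 in MCT 270 against 0.115 and 0.132 in control. Zfp74 and Zfp781 were at log2 fold changes of 0.85 and 0.77. In the other direction, after Zfp612, Zfp618, Zfp369 and Zfp112, Zfp704 had 0.394 and 0.348 in MCT 270 against 0.653 and 0.675 in control, and 0.389 in MCT 330. Zfp358 had 1.42 and 1.17 in MCT 270 against 2.02 and 2.46 in control. Of these 12 genes, Zfp612, Zfp369, Zfp704 and Zfp358 passed at MCT 330 and none at MCT 270 (limma, adjusted p from 0.0923 to 0.423).

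Between the doses, 15 members were higher and 11 lower at MCT 330 than at MCT 270, 5.38% and 3.94%, against 5.04% and 17.0% of all genes tested and 5.51% and 13.9% of protein-coding symbols detected on all arrays. With 6 samples these counts were 40 and 57, 14.3% and 20.4% of members, against 12.9% and 32.7% of all genes tested. With quantile normalization they were 20 and 3 (6.10% and 9.72% of all genes tested) and with normexp 25 and 4 (7.97% and 8.29%). Without MCT 270 replicate 1 the 15 and 11 became 0 and 0, as 0% of all genes tested passed in either direction. The comparison shares the MCT 330 sample with the one against control. Zfp871 and Zfp429 led (4.29-fold and 2.99-fold), followed by Zfp9, Zfp652 (2.42-fold) and Zfp948 (2.36-fold). Zfp652 had relative signals of 0.171 and 0.193 in control, 0.143 and 0.145 in MCT 270 and 0.348 in MCT 330, so the lower dose lay under control and the higher dose above it. Zfp366, known as a regulator of dendritic cell function, had 0.0825 and 0.0713 in control, 0.0818 and 0.143 in MCT 270 and 0.0308 in MCT 330, and was 3.52-fold lower at MCT 330 than at MCT 270 (limma adjusted p = 0.0357). Against control its adjusted p was 0.0555. Zfp827, Zfp287, Zfp775 and Zfp790 followed among the members lower at the higher dose. Arrays of all 3 groups stood in the order of dose without overlap for 28 members upward and 30 downward, 10% and 10.8%, against 8.37% and 14.5% of all genes tested.

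The members as a whole were centred near 0 at both doses. The median log2 fold change at MCT 330 against control was 0.01 over the members, with quartiles of -0.47 and 0.40, against -0.25 over all genes tested and -0.19 over protein-coding symbols detected on all arrays. At MCT 270 against control it was 0.02, -0.02 and -0.05 for the same sets. A fold change of 2 or more at MCT 330 was seen upward for 5.38% and downward for 7.53% of members, against 7.96% and 20.0% of those protein-coding symbols. Brightness differed between the sets, and 172 of the 279 members lay under the median brightness of genes detected on all arrays. Among genes under that median the members stood at 0.07 and protein-coding symbols at -0.39, and among genes over it at -0.05 and -0.12. The member median at MCT 330 moved to 0.18 after quantile normalization, while its difference from all genes detected on all 9 arrays (0.29) moved to 0.28. With normexp that difference was 0.18. These comparison sets were added after the medians had been seen.

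**Figure D3:**
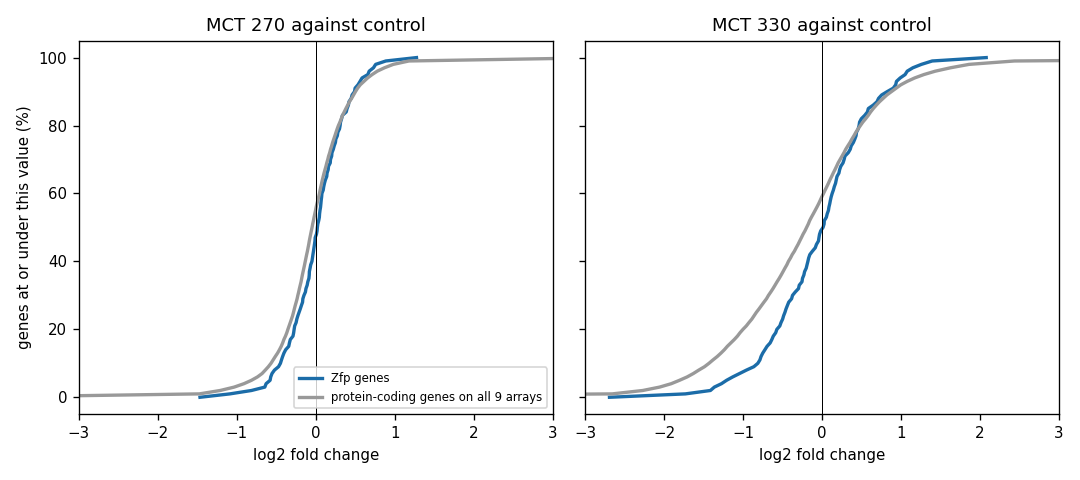
Share of genes (vertical axis, percent) with a log2 fold change at or under the value on the horizontal axis, for the 279 Zfp genes and the 13982 protein-coding symbols detected on all 9 arrays. At MCT 270 (left) the curves cross 50% at 0.02 and -0.05; at MCT 330 (right) they cross at 0.01 and -0.19, and the Zfp curve lies under the other at values below 0.

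The members were also counted by role, from lists put together here, at MCT 330 against control. There 9.51% of all genes tested were higher and 23.8% lower. Of 10 members with RNA or ribosome roles, 1 rose and 0 fell: Zfp593, whose yeast counterpart acts in maturation of the large ribosomal subunit, had relative signals of 0.363 and 0.404 in control, 0.343 and 0.359 in MCT 270 and 0.810 in MCT 330 (2.11-fold, limma adjusted p = 0.0191). Zfp36 (tristetraprolin), which binds AU-rich elements and triggers decay of cytokine mRNAs, had 0.308 and 0.411 in control, 0.464 and 0.338 in MCT 270 and 0.705 in MCT 330, and did not pass (1.98-fold, limma adjusted p = 0.0663). Zfp622, another ribosome maturation factor by its yeast counterpart, had 5.04 and 4.84 in MCT 270 against 6.53 and 8.28 in control, and 9.42 in MCT 330, with no call. Of 20 genes listed around mRNA decay, including Zfp36l1, Zfp36l2 and Elavl1, 2 rose and 2 fell, beside the same shares of all genes. Cnot11, a subunit of the deadenylase complex, was at 1.09, and Xrn1, the 5′ to 3′ exonuclease, at -1.19 on the log2 scale (limma adjusted p = 0.0270 and 0.0172).

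Of 17 members listed as activators and chromatin factors, 1 rose (Zfp143) and 1 fell (Zfp148). Zfp148, a GC-box binding factor, had 0.945 and 0.928 in control, 0.631 and 0.747 in MCT 270 and 0.448 in MCT 330 (2.09-fold lower, limma adjusted p = 0.0225). Across the 19 alternatives its log2 fold change ran from -1.08 to -0.30, and in 3 of them it did not pass (highest limma adjusted p 0.385). Of 12 developmental factors, 1 rose (Zfp488) and 3 fell (Zfp467, Zfp503 and Zfp704). Zfp503 had 0.203 and 0.261 in control, 0.184 and 0.144 in MCT 270 and 0.107 in MCT 330 (2.16-fold lower, limma adjusted p = 0.0381). Of 5 members with roles as ubiquitin ligases or in signalling, 0 passed (limma). Zfp598, the ligase that marks collided ribosomes, had 3.15 and 3.15 in control, 2.04 and 2.25 in MCT 270 and 2.36 in MCT 330 (limma adjusted p = 0.159).

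Of 9 members listed as KRAB silencers of repeats and imprinted loci, 0 rose and 1 fell (Zfp30). Whether Zfp30 silences such loci in liver was not tested. Zfp57, which keeps imprinted loci methylated, had 1.80 and 1.89 in control, 1.45 and 1.14 in MCT 270 and 1.12 in MCT 330, with a log2 fold change of -0.72 at MCT 330 (limma adjusted p = 0.0726). Zfp809, which silences retroviral elements, had 1.01 and 0.916 in control, 1.07 and 1.51 in MCT 270 and 0.847 in MCT 330 (limma adjusted p = 0.635). Of 24 corepressor and heterochromatin genes tested, 4 rose and 1 fell, beside 9.51% and 23.8% of all genes. Dnmt1, the maintenance DNA methyltransferase, had 0.708 in MCT 330 against 0.283 and 0.291 in control (limma adjusted p = 0.0197). Dnmt3a, a de novo methyltransferase, had 0.257 in MCT 330 against 0.751 and 0.720 in control (limma adjusted p = 0.0156). Morc3 and Cbx5 rose by 0.97 and 1.01 on the log2 scale. Trim28 had 4.77 in MCT 330 against 3.30 and 3.35 in control, and Setdb1 had 0.767 in MCT 330 against 0.863 and 0.923 in control, neither with a call (limma adjusted p = 0.125 and 0.416).

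Counts for other families of zinc finger genes at MCT 330 against control stand beside 9.51% higher and 23.8% lower over all genes tested. Of 36 Zbtb genes 11 rose and 5 fell, of 16 Klf genes 2 rose and 5 fell, of 10 Zscan genes 0 rose and 5 fell, and of 10 Zkscan genes 0 rose and 2 fell. Of 27 Zfp symbols that carry letters after the number, 2 rose and 5 fell, and of 3 Zfhx genes none passed (limma). No difference between families was tested.

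In gene order, all 279 members had a place in the RefSeq gene list, which is separate from the promoter windows. Zfp genes with at most 5 other protein-coding genes between them formed 142 runs with a member, of which 12 held 5 or more members. The longest, on chromosome 17, runs from Zfp160 to Zfp13 with 20 members, with log2 fold changes from -0.96 (Zfp53) to 1.08 (Zfp948). Of these 20, 3 rose and 1 fell, beside 9.51% and 23.8% of all genes tested. On chromosome 7 the run from Zfp84 to Zfp146 holds 13 members and contains both Zfp82 (1.61) and Zfp30 (-1.28). The run from Zfp628 to Zfp580, also on chromosome 7, has all 6 members below 0, between -0.45 (Zfp784) and -0.82 (Zfp524). In it Zfp524 and Zfp865 fell (limma adjusted p = 0.0369 and 0.0489), where 23.8% of all genes tested fell. Of the 12 runs it alone has 0 members above 0, and it was named with these values known. Over all members 138 of 279 lay below 0, and over all genes tested 15176 of 24819. Across the 137 pairs of neighbouring members in a run the median difference of log2 fold changes was 0.58, against 0.62 over all pairs of members, and the correlation between neighbours was 0.09 across genes, which share arrays.

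**Figure D4:**
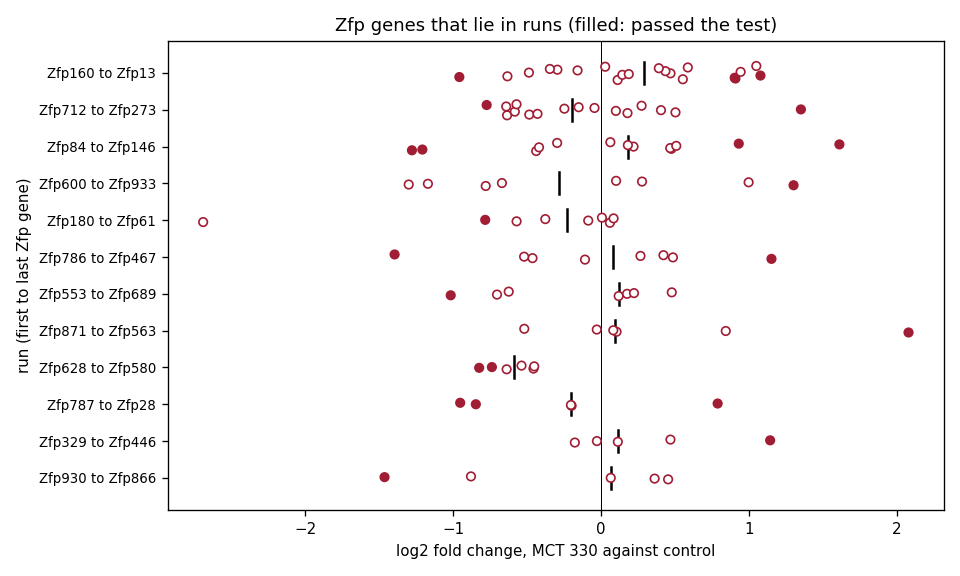
Log2 fold change at MCT 330 against control (horizontal axis) of the members in the 12 runs with 5 or more members, 1 row per run and 1 point per gene. Filled points passed the test and black bars are run medians; most runs span 0, and the run from Zfp628 to Zfp580 lies wholly below it.

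The remaining 59 Zfp symbols on the array were left out. Of these, 9 were well above background on no array and 14 on 8 of the 9, such as Zfp174 and Zfp788, each missing on 1 control array. The dimmest members just inside the rule were Zfp287, Zfp219 and Zfp366, with lowest processed signals of 15.2, 16.4 and 18.1, and the symbols just outside had lowest signals of 11.4 (Zfp788) to 21.6 (Zfp60). For 37 symbols a probe was well above background on all MCT 330 arrays and not on all control arrays, and Zfp521 alone showed the reverse. The share of all spots well above background was 73.4% to 80.2% on MCT 330 arrays and 64.0% to 75% on control arrays, and its part in these detection counts was not tested.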

How the data were processed

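The authors deposited spot intensity values from Agilent Feature Extraction 11.0.1.1, background-subtracted and detrended per the file headers, from Cy3 scans of an array annotated on mm9. Log2 values were computed here, minus each array's 75th percentile. Of 44397 spots, 1377 controls were left out, none was saturated, outlier spots were set to missing, and 173 spots on which MCT 330 replicate 1 lay over 1 log2 unit away from replicates 2 and 3 were dropped, a rule narrowed to detected spots after its first count was seen. A probe was kept where all arrays of any 1 group detected it, and a gene took its brightest probe, by mean over all arrays. Of 33258 systematic names, 21464 matched a symbol in the RefSeq table. Groups were compared with limma 3.58.1 (lmFit, eBayes, a single fit) in R 4.3.3, tested on simulated data. The joining limit of 1 in the written design was raised to 1.2 after the ratios were seen, and the 6 samples it would have given are an alternative. The number of arrays limits the precision.

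Members and gene lists were chosen with earlier results of these data known. Genes were named by rule: up to 10 highest and 10 lowest fold changes that passed with no overlap at MCT 330, up to 6 and 6 without overlap at MCT 270, up to 5 and 5 between doses, role-list members, detection limits and up to 4 genes per partner list. Replicate numbers did not pair the arrays (correlations of deviations 0.017 to 0.086). The deposited miRNA arrays were not used here.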

Additional observations from a re-analysis of the deposited data

How the results depend on the processing

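Counts of members that passed are given as higher and lower. With 9 arrays as separate samples and no replicate block they were 95 and 99 for MCT 330 against control, 63 and 59 for MCT 270 against control and 80 and 96 for MCT 330 against MCT 270. The shares of all genes were 25.8% and 47.3%, 18.8% and 19.8%, and 20.8% and 44.5%. Of the members, 34.1% were higher and 35.5% lower at MCT 330 against control in that fit. With a replicate block the counts of members were 95 and 97, 60 and 52, and 77 and 96. The shares of all genes were 25.5% and 47%, 18.1% and 19.7%, and 20.4% and 44.2%. With scan session as a random block the counts of members were 99 and 106, 60 and 55, and 87 and 104. The shares of all genes were 26.9% and 49.1%, 17.5% and 18.5%, and 22.3% and 46.5%. In that fit the member median at MCT 330 against control was -0.0267. With 6 samples, the limit as first written, the counts of members were 65 and 69, 8 and 5, and 40 and 57. The shares of all genes were 18.5% and 37.2%, 3.58% and 3.48%, and 12.9% and 32.7% with these 6 samples. The alternative with 6 samples and the single-session values were chosen after seeing the data.

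With no filter on dim probes, 6 and 4 passed at MCT 330 against control and 0 and 0 between doses, where 0% of all genes passed. Quantile normalization gave 34 and 15 against control and 20 and 3 between doses, with medians of 0.18 and 0.11. Normexp gave 48 and 21 against control, 25 and 4 between doses and 1 and 0 at MCT 270. With normexp the shares of all genes at MCT 270 were 0.838% and 1.18%. Its medians were 0.12 (against control) and 0.0713 (between doses). Its medians minus those of all genes on all 9 arrays were 0.18, 0.12 and, at MCT 270, 0.0375. With probes detected on all 9 arrays, the counts were 33 and 38 against control, 22 and 19 between doses and 0 and 1 at MCT 270. The shares of all genes were 11.6% and 30.4%, 7.04% and 22.4%, and 0.628% and 1.39%. Averaged probes gave medians of 0.0597 at MCT 330 and 0.0611 at MCT 270, and turned Zfp85 to 0.10.

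Leaving out 1 array in turn gave 4 to 25 higher and 3 to 28 lower at MCT 330 against control, 0 to 21 and 0 to 17 between doses, and 0 at MCT 270. The shares of all genes ran from 4.08% to 9.54% higher and 10.4% to 24.4% lower at MCT 330 against control. Between doses they ran from 0% to 6.51% and 0% to 22.2%, and at MCT 270 they were 0%. Medians ranged from -0.01 to 0.03, -0.07 to -0.05, and -0.0024 to 0.03, and relative medians from 0.28 to 0.31, 0.13 to 0.17 and 0.07 to 0.08. Where a cause is not plain from fewer genes or samples, it was not tested. The planned grouping of members by protein sequence was not run.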
